A study of Mus musculus with 20 samples.

Results

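The desmosome genes described here are the 10 genes *Dsc2*, *Dsc3*, *Dsg2*, *Dsg3*, *Dsp*, *Jup*, *Pkp1*, *Pkp2*, *Pkp3* and *Perp*, taken by symbol from the 24411 genes of an RNA-seq data set of the mouse outer eyecup (RPE and choroid). All 10 had a row, and all 10 were among the 18807 genes tested, those with 5 or more recovered reads summed over libraries. The study kept WT and *Stra6*-/- mice on a vitamin A sufficient (VAS, 4 IU/g) or vitamin A deficient (VAD, 0 IU/g) diet for 12 weeks from weaning, with 5 samples in each of the 4 groups, and asked how the tissue answers to graded loss of vitamin A. *Stra6* encodes the membrane receptor that takes up retinol from the circulation. The labels give the strain of all groups as C57BL/6, and the study's methods give the background of the knockout colony, bred in house, as C57BL/6J, while the WT mice came from a supplier. Muscle, connective tissue, the anterior segment with the cornea and, after dispase, the neural retina were dissected away, and the RPE-choroid of a pair of eyecups was pooled per sample. By the study's account both eyecups of a sample came from the same mouse.

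Desmosomes are spot-like junctions that tie the keratin filaments of neighbouring epithelial cells together, and they are most abundant in stratified epithelia such as epidermis, cornea and conjunctiva. Their adhesive part is made of desmosomal cadherins, the desmogleins (*Dsg2*, *Dsg3*) and desmocollins (*Dsc2*, *Dsc3*). Inside the cell these bind the armadillo proteins plakoglobin (*Jup*) and the plakophilins (*Pkp1*, *Pkp2*, *Pkp3*), which bind desmoplakin (*Dsp*), the linker to keratin. *Perp* encodes a tetraspan membrane protein of desmosomes in stratified epithelia. *Dsg2*, *Dsc2* and *Pkp2* are also used in simple epithelia and heart, whereas *Dsg3*, *Dsc3* and *Pkp1* are known mainly from stratified epithelia. The RPE is a simple epithelium.

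The start of a gene is shown for the plaque genes *Jup* and *Dsp*, the only members with an entry in the RefSeq promoter table used (2 of 10). Both rose or fell in the same comparisons, but by different amounts, as described further on. The stretches lie upstream of the annotated transcripts, on the minus strand at chr11:100397840-100398040 for *Jup* (201 bases) and on the plus strand at chr13:38151044-38151293 for *Dsp* (250 bases), build GRCm38.p6. Capitals mark a match to the AP-2 motif GCCNNNGGC.
Jup: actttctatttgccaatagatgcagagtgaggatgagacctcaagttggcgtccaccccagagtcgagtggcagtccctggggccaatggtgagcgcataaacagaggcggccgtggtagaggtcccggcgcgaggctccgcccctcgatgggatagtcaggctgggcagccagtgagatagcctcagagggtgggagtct
Dsp: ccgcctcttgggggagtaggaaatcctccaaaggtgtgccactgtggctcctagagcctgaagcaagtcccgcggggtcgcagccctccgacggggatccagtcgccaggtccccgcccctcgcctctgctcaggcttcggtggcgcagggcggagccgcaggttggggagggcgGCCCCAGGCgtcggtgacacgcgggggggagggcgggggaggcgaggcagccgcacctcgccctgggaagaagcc
Both strands were searched for AGGTCA (a nuclear receptor half-site), TGANTCA (AP-1), GCCNNNGGC (AP-2) and CAGGTG (an E-box). The *Dsp* stretch held 1 AP-2 match, a motif found in 13.7% of all 32851 promoter windows cut to the same length. The *Jup* stretch held none of the 4. These are matches of letters only.

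On GRCm38 (GENCODE vM21) the 4 cadherin genes lie in the desmosomal cadherin cluster of chromosome 18, from *Dsc3* (start 19960930) over *Dsc2* (20030633) and *Dsg3* (20510274) to *Dsg2* (end 20604521). The other 6 lie apart, *Pkp1* on chromosome 1, *Pkp3* on 7, *Perp* on 10, *Jup* on 11, *Dsp* on 13 and *Pkp2* on 16. Exons of *Dsg2* overlap 330 bases of *Gm16090* and those of *Dsp* 499 bases of *Gm10129*, both on the opposite strand. The strand used in counting was not given in the sources used here, so that reads of these pairs cannot be told apart.

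Library depth ranged from 13331903 to 21878614 reads. The values are gene counts divided by a size factor per library, called normalized values below. *Stra6* was lower in VAS *Stra6*-/- (564 to 694) than in VAS WT (2414 to 2742). In the 5 libraries labelled VAD *Stra6*-/- it was 1973 to 2393, above VAD WT (669 to 1529). *Stra6* is expressed in the RPE, and RPE markers differed between groups. In VAS WT, VAD WT, VAS *Stra6*-/- and the libraries labelled VAD *Stra6*-/-, mean *Stra6* was 2591, 986, 629 and 2163. The mean sum of 12 RPE markers was 206991, 82686, 200130 and 739584 in the same order. Beside VAS WT, the libraries labelled VAD *Stra6*-/- thus had less *Stra6* but a higher sum of RPE markers. *Stra6* was not tested relative to RPE markers, so that its value alone cannot settle the label. These 5 libraries are called the libraries labelled VAD *Stra6*-/- throughout, and directions drawn from them are between libraries as labelled. VAS WT libraries were low in *Xist* (7.69 to 38.4) and VAS *Stra6*-/- libraries high (15320 to 18052), so that sex and genotype cannot be told apart in that comparison. VAD WT replicates 2 and 4 stood apart from 1, 3 and 5, with *Xist* at 10912 and 11767 against 174 to 234. The members' comparisons with VAD WT are given with and without replicates 2 and 4. Replicates 2 and 4 also held the Y-linked *Ddx3y* (75.2 and 80.5, against 0 to 1.02 in VAS *Stra6*-/-). Replicates 1, 3 and 5 held more *Xist* than any VAS WT library. All 5 libraries labelled VAD *Stra6*-/- held both *Xist* (3570 to 4280) and the Y-linked *Ddx3y* (741 to 970), which RNA of 1 male or 1 female mouse would not both hold at such levels. The study describes each sample as the eyecups of the same mouse, which these sex transcripts do not match. How both came to be present was not tested, so that n, SD and p for this group describe libraries and may not describe single mice.

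Markers of surface epithelium (cornea and conjunctiva), 15 genes including *Krt5* and *Krt12*, were present in every group of this RPE-choroid tissue. Their summed value was 633048 to 763768 in VAS WT, 410545 to 1119200 in VAD WT and 923789 to 959619 in VAS *Stra6*-/-, against 26642 to 34476 in the libraries labelled VAD *Stra6*-/-. No marker of the list was at 0 throughout any group. The 12 RPE markers, *Ttr* and *Rgr* among them, had sums of 198198 to 227810, 69611 to 101591, 189573 to 206027 and 706600 to 770845 in the same order. In bulk samples fewer cells of a type and less RNA per cell cannot be told apart.

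In VAS WT, the reference group, desmosome genes were far from equal in level. Per kb of exon, *Perp* had the highest mean normalized value, 13805 ± 692 (SD, n = 5). *Jup* followed with 1928 ± 125, *Dsp* with 1622 ± 140 and *Dsc2* with 1490 ± 103 per kb. *Pkp1*, *Dsc3* and *Pkp3* lay between 981 and 1172 per kb. *Dsg3* was lower at 248 ± 16.7 per kb, and *Dsg2* at 56.1 ± 4.31 and *Pkp2* at 47.3 ± 6.35 per kb closed the order. Neighbours in this order whose means differed by less than the sum of their SDs were *Dsp* and *Dsc2*, *Pkp1* and *Dsc3*, *Dsc3* and *Pkp3*, and *Dsg2* and *Pkp2*. Of the genes known mainly from stratified epithelia, *Dsc3* (1072 ± 75.3 per kb) and *Pkp1* (1172 ± 82.1) stood far above *Dsg2* and *Pkp2*, which simple epithelia also use. *Dsc2*, likewise shared with simple epithelia, was the highest of the 4 cadherins.

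The order shifted between groups. In VAS *Stra6*-/- *Dsp* (4244 ± 165 per kb) stood above *Jup* (3288 ± 131), and *Pkp2* was last at 40.4 ± 3.09 per kb. In the libraries labelled VAD *Stra6*-/- *Perp* was still first at 1986 ± 92.8 per kb, while *Pkp2* had moved to the fourth place with 91.5 ± 10.5 per kb, above *Pkp3* (58.6 ± 12.9) and *Dsc2* (57.9 ± 6.87). Those last 2 differed by less than the sum of their SDs.

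**Figure D1:**
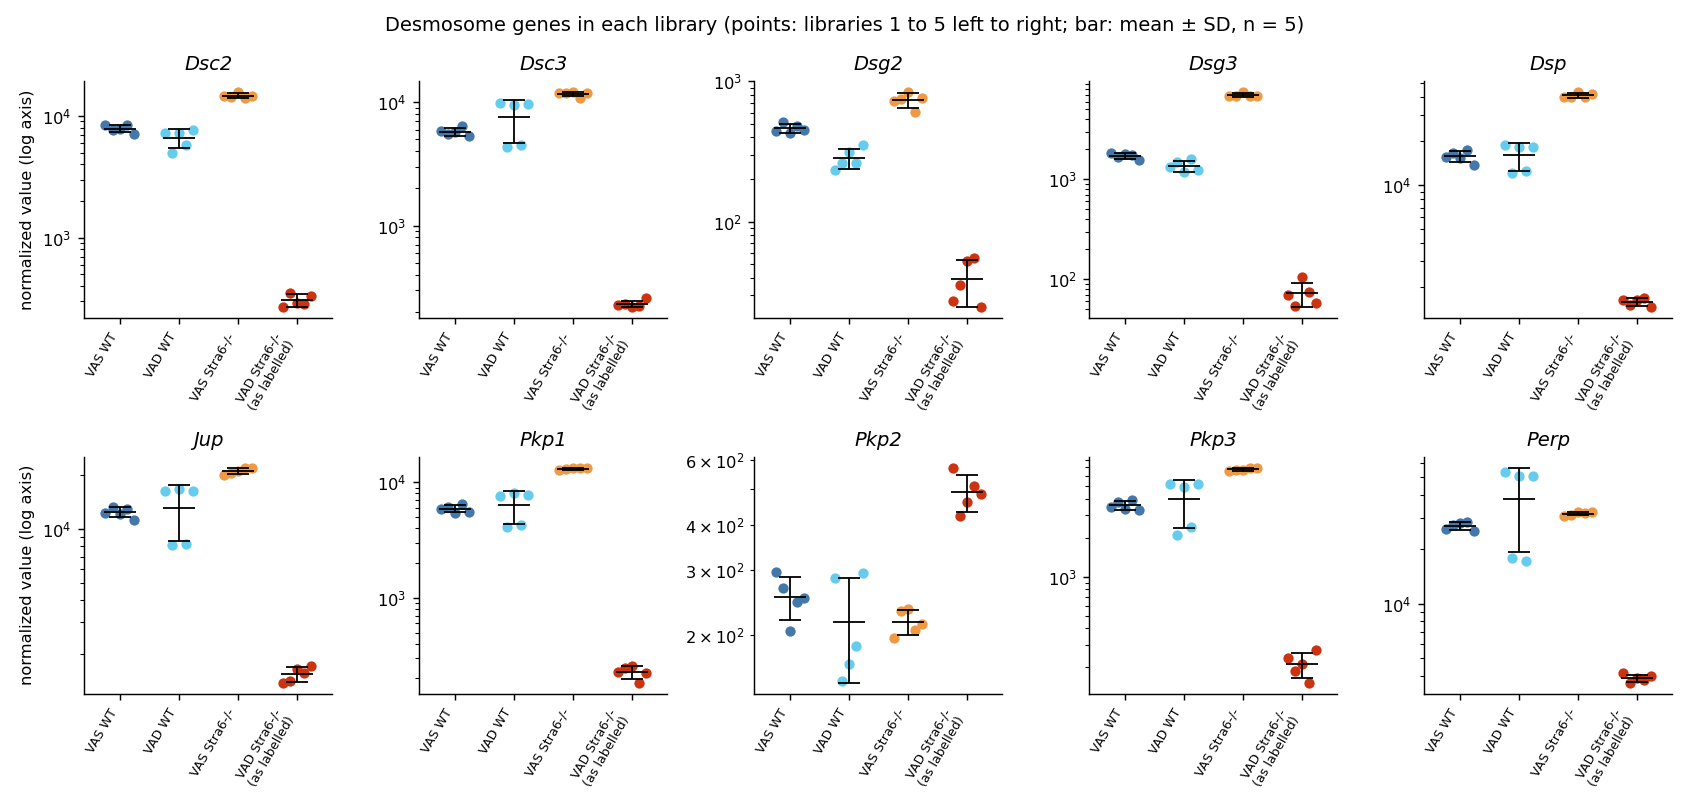
Normalized values of the 10 genes (log axis, a scale per panel) in each library of the 4 groups, with bars for the mean ± SD (n = 5). In 9 panels the libraries labelled VAD Stra6-/- sit lowest, whereas for Pkp2 they sit highest (422 to 573). VAD WT replicates 2 and 4 fall below replicates 1, 3 and 5 for Dsc2, Dsc3, Dsp, Jup, Pkp1, Pkp3 and Perp.

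On the sufficient diet most desmosome genes were higher in the *Stra6*-/- libraries, which also differ from WT in their sex transcripts. Of the 10 genes, 8 were higher in VAS *Stra6*-/- than in VAS WT at an adjusted p under 0.05 (limma), where 15.9% of all genes tested were higher, and 0 were lower, where 10.8% of all genes were. At an unadjusted p under 0.05 limma had 0 lower too, as had edgeR and DESeq2 after adjustment. *Pkp2* and *Perp* were not called. The median log2 fold change of the 10 was 0.92, beside 0.02 over all genes tested. In 9 of 10 the groups did not overlap and the VAS *Stra6*-/- libraries were higher, as for 19.3% of all genes.

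Among the cadherins, *Dsg3* had the largest log2 fold change. *Dsg3*, the pemphigus vulgaris antigen of basal stratified epithelium, read 1848, 1683, 1801, 1756 and 1550 in VAS WT. In VAS *Stra6*-/- it read 6781, 6889, 7504, 6809 and 6770. All 5 knockout libraries stood more than 3-fold above the WT libraries and the groups did not overlap. The log2 fold change was 2.01 (SE 0.13, adjusted p = 4.38e-10, limma), a 4.03-fold rise and the only member past a log2 fold change of 2 (0.760% of all genes were higher by that rule). It lies at that threshold, and with TMM scaling (1.98), scaling to the library total (1.90) or edgeR (1.98) it stayed called but fell under 2.

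*Dsc2* read 8356, 7623, 7860, 8390 and 7085 in VAS WT. The knockout libraries read 14489, 14337, 15774, 14162 and 14562, which is 0.90 higher on the log2 scale (SE 0.10, adjusted p = 1.57e-06, limma). The lowest knockout library was well above the highest WT library. *Dsc3*, the desmocollin of basal layers, rose by a similar amount, 1.02 on the log2 scale (SE 0.18, adjusted p = 0.000246, limma), from 5384 to 6450 in VAS WT to 10832 to 12053. *Dsg2*, the desmoglein of simple epithelia, had the smallest log2 fold change of the 4 cadherins, 0.66 (SE 0.19, adjusted p = 0.0111, limma). Its values were 441, 517, 428, 481 and 452 in VAS WT and 730, 743, 843, 605 and 767 in VAS *Stra6*-/-. Again no WT library reached the lowest knockout library.

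Of the plaque genes, *Dsp* had a larger log2 fold change than its partner *Jup*. *Dsp* read 15474, 16609, 15353, 17213 and 13681 in VAS WT. In the knockout it read 39837, 39859, 43394, 40024 and 41874, or 1.39 higher on the log2 scale (SE 0.11, adjusted p = 1.66e-08, limma). Every knockout library was over 2-fold above every WT library. *Jup* ranged from 11259 to 13340 in VAS WT and from 20109 to 22072 in the knockout, higher by 0.77 on the log2 scale (SE 0.17, adjusted p = 0.00156, limma).

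Both plakophilins of stratified epithelia rose. *Pkp1*, the plakophilin of suprabasal cells, read 5922, 6105, 5470, 6444 and 5502 in VAS WT and 12757, 12998, 13329, 13342 and 13365 in the knockout. It was higher by 1.16 on the log2 scale (SE 0.16, adjusted p = 9.64e-06, limma). *Pkp3*, which is found in nearly all desmosomes of stratified epithelia, read 3467, 3762, 3336, 3895 and 3273 and then 6574, 6628, 6660, 6945 and 6942, higher by 0.93 (SE 0.21, adjusted p = 0.00206, limma). The knockout libraries lay close together for both genes and none overlapped with VAS WT.

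*Perp* read 25881, 27381, 27920, 28356 and 25202 in VAS WT and 30605, 31001, 32098, 31646 and 32263 in VAS *Stra6*-/-. The groups did not overlap, yet the log2 fold change of 0.23 (SE 0.25, adjusted p = 0.555, limma) was not called. The spread shared in that fit includes VAD WT, where *Perp* ran from 17136 to 53244. Without VAD WT replicates 2 and 4 the adjusted p was 0.000103, and with only the compared groups in the fit it was 0.000593 (limma). *Pkp2* values overlapped (204 to 297 and 196 to 235), with a log2 fold change of -0.22 (SE 0.17, adjusted p = 0.373, limma).

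Surface epithelium markers moved in the same comparison, with 7 of 15 higher and 1 lower. All 9 skeletal muscle markers were higher too (summed value 28328 to 32392 against 11095 to 13798), and the part of muscle in the result was not tested. When each gene was measured relative to the mean log2 value of the 15 surface epithelium markers in the same library, 4 members were still higher in VAS *Stra6*-/- (0.978% of all genes) and 2 were lower (46.8% of all genes). *Dsg3* remained higher by 1.30 (SE 0.25, adjusted p = 0.000214, limma) and *Dsp* by 0.68 (SE 0.11, adjusted p = 4.33e-05, limma). *Pkp1* was higher by 0.45 and *Dsc3* by 0.31 on this relative scale (adjusted p = 0.000697 and 0.00304, limma). *Perp* was lower by the same measure, at -0.48 (SE 0.11, adjusted p = 0.00162, limma), as was *Pkp2*, at -0.93 (SE 0.18, adjusted p = 0.000293, limma). *Dsc2* (0.19), *Dsg2* (-0.05), *Pkp3* (0.22) and *Jup* (0.06) were not called.

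**Figure D2:**
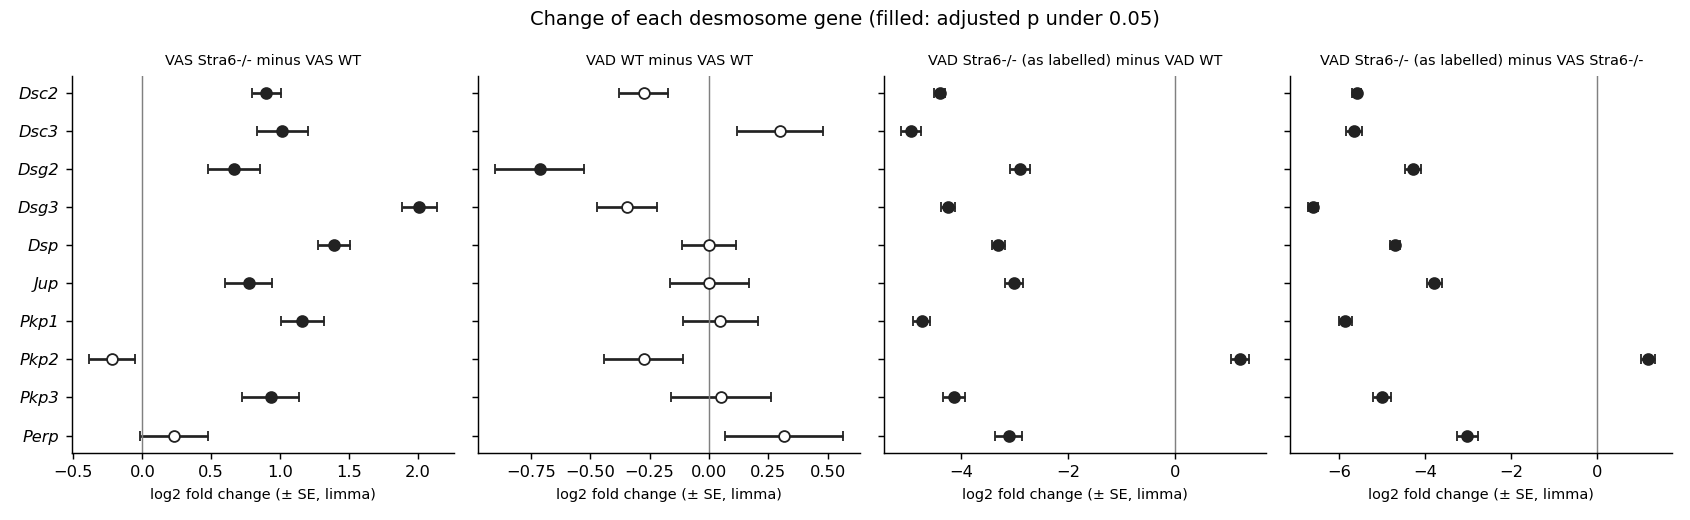
Log2 fold change of each desmosome gene (x axis, ± SE from limma) in 4 comparisons, with filled circles for adjusted p under 0.05. Under VAS Stra6-/- minus VAS WT 8 circles are filled to the right of 0, under VAD WT minus VAS WT only Dsg2 is filled, and in both comparisons of the libraries labelled VAD Stra6-/- 9 genes lie below -2 and Pkp2 lies above 0.

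Few of the genes differed between VAD WT and VAS WT by the planned test. With limma *Dsg2* alone was called lower in VAD WT than in VAS WT (5.50% of all genes were lower) and 0 members were higher (3.29% of all genes). *Dsg2* was also the 1 member whose libraries all lay below those of VAS WT (4.21% of all genes, and 2.13% lay above). It was not beyond 2 on the log2 scale, as were 0.303% of all genes. For the higher direction edgeR and DESeq2 also called 0, and at an unadjusted p under 0.05 limma had 0. For the lower direction edgeR called 1 and DESeq2 called 2 (*Dsg3* besides, adjusted p = 0.0207), scaling to the library total added *Dsc2* (adjusted p = 0.0124, limma), and 3 were lower at an unadjusted p under 0.05 (limma). Over all genes edgeR had 844 lower and 685 higher, and DESeq2 1082 lower and 1059 higher. *Dsg2* read 235, 263, 316, 260 and 351 in VAD WT, and all 5 libraries were below the lowest VAS WT library (428). Its log2 fold change was -0.71 (SE 0.19, adjusted p = 0.0186, limma). Without VAS WT replicate 2 the adjusted p of *Dsg2* was 0.0509 (limma), with a log2 fold change of -0.67. Between these groups 11 of 12 RPE, 5 of 9 skeletal muscle and 3 of 7 macrophage markers were lower. So were 2 of 8 melanocyte and 2 of 15 surface epithelium markers, while 3 of 8 fibroblast and sclera markers were higher. The part of these lists in the *Dsg2* result was not tested.

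The 5 VAD WT libraries were divided for most members. *Dsc3* read 9987, 9451 and 9773 in replicates 1, 3 and 5, and 4344 and 4550 in replicates 2 and 4. *Perp* read 53244, 51114 and 50618 in replicates 1, 3 and 5, and 17905 and 17136 in replicates 2 and 4. The surface epithelium sum was split in the same way, 1090450 to 1119200 against 410545 and 413943. *Dsp* (18056 to 18816 against 12076 and 12372), *Jup* (16215 to 16698 against 8083 and 8278), *Pkp1* (7684 to 7999 against 4112 and 4247) and *Pkp3* (4919 to 5194 against 2090 and 2408) were divided likewise. The gap was narrower for *Dsc2*, at 7290, 7249 and 7617 against 4925 and 5793. *Dsg3* ran the other way, with 1315, 1179 and 1243 in replicates 1, 3 and 5 and 1483 and 1606 in replicates 2 and 4.

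Without VAD WT replicates 2 and 4, 6 members were higher in VAD WT than in VAS WT (17.6% of all genes in that fit) and 2 were lower (20.3%). *Perp* was higher by 0.94 (adjusted p = 2.15e-12, limma), *Dsc3* by 0.75 (adjusted p = 2.08e-09), *Pkp3* by 0.52, *Pkp1* by 0.41, *Jup* by 0.40 and *Dsp* by 0.23 on the log2 scale. *Dsg2* (-0.64, adjusted p = 0.0229, limma) and *Dsg3* (-0.47, adjusted p = 0.00847, limma) were lower. *Dsc2* (-0.09) and *Pkp2* (-0.06) were not called. The direction of *Dsp* in all 5 libraries, a log2 fold change under 0.01 in size, depended on the setting.

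Relative to surface epithelium, *Dsc3* was the only member higher in VAD WT (0.34, SE 0.08, adjusted p = 0.0153, limma, where 1.56% of all genes were higher), and 0 members were lower (1.32%), with 1 lower at an unadjusted p under 0.05 (limma, the only tool run on this scale). The *Dsc3* call was lost with a replicate block (adjusted p = 0.0523, limma) and without VAS WT replicate 2 (adjusted p = 0.0594, limma). Without VAD WT replicates 2 and 4, 2 members were higher (3.87% of all genes) and 4 lower (42.9%). Those lower were *Dsg2* (-1.01), *Dsg3* (-0.84), *Dsc2* (-0.46) and *Pkp2* (-0.43), and those higher were *Perp* (0.57) and *Dsc3* (0.38).

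The libraries labelled VAD *Stra6*-/- had the lowest level of every member but *Pkp2*. Against VAD WT, 9 members were lower (29.6% of all genes), all 9 by more than 2 on the log2 scale (6.86% of all genes), and *Pkp2* was higher (26.2%), though not beyond 2 (3.52%). For each of the 9 the groups did not overlap (19.0% of all genes on the lower side). Without VAD WT replicates 2 and 4, 9 members were again lower and *Pkp2* higher (1.01). The share of all genes was not counted for that fit. The median log2 fold change of the 10 was -3.72, beside -0.05 over all genes tested. The same 9 were lower against VAS *Stra6*-/- (28.8% of all genes), again all beyond 2 (7.40%), and *Pkp2* was again higher by less than 2 (1.67% were higher by more), with a median of -4.86 beside -0.07. Both comparisons share these 5 libraries. *Ddx3y* was 0 to 1.02 in VAS *Stra6*-/- and 741 to 970 in these 5 libraries. Sex transcripts and diet therefore cannot be told apart between those groups.

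*Dsg3* read 69.5, 54.1, 104, 74.6 and 58.3 in the libraries labelled VAD *Stra6*-/-, where VAD WT held 1179 to 1606 and VAS *Stra6*-/- 6770 to 7504. The lowest of these was over 10-fold above all 5. Its log2 fold changes were -4.25 (SE 0.13, adjusted p = 1.33e-16, limma) against VAD WT and -6.61 (SE 0.13, adjusted p = 5.28e-20, limma) against VAS *Stra6*-/-. *Dsc3* read 227, 230, 219, 223 and 255, with log2 fold changes of -4.94 against VAD WT (adjusted p = 3.12e-15, limma) and -5.66 against VAS *Stra6*-/- (adjusted p = 2.57e-16, limma). *Dsc2* read 268, 354, 290, 284 and 334, with log2 fold changes of -4.41 and -5.59 (SE 0.10 for both, limma). *Dsg2* was down to 27.2, 35.2, 52.2, 55.3 and 24.5, with -2.90 and -4.28 (SE 0.19 for both, limma). For all 4 cadherins every library of the other groups was higher. Of all genes, 19.0% lay lower without overlap against VAD WT and 26.8% against VAS *Stra6*-/-.

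*Dsp* read 1639, 1510, 1622, 1677 and 1453 in the libraries labelled VAD *Stra6*-/-. That is a log2 fold change of -3.31 against VAD WT (SE 0.11, adjusted p = 1.21e-15, limma) and of -4.70 against VAS *Stra6*-/- (SE 0.11, adjusted p = 2.98e-18, limma). The mean level kept differed among members. As a percentage of the VAD WT mean, *Jup* (1372 to 1706) kept 11.7%, *Perp* (3642 to 4114) 10.2% and *Dsp* 9.93%, whereas *Dsc3* kept 3.03%, *Pkp1* (183 to 257) 3.58%, *Dsc2* 4.65%, *Dsg3* 5.29% and *Pkp3* (152 to 275) 5.36%. *Dsg2*, the cadherin of lowest level, kept 13.6%. Log2 fold changes against VAD WT were -4.75 for *Pkp1*, -4.13 for *Pkp3*, -3.02 for *Jup* and -3.11 for *Perp*, all called by limma. Leaving out VAD WT replicates 2 and 4 gave -5.39 for *Dsc3*, -5.11 for *Pkp1*, -4.61 for *Pkp3*, -4.60 for *Dsc2*, -4.13 for *Dsg3*, -3.74 for *Perp*, -3.54 for *Dsp*, -3.42 for *Jup* and -2.97 for *Dsg2*. The percentages of the VAD WT mean rest on all 5 of its libraries.

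*Pkp2*, the plakophilin of simple epithelia and heart, went the other way. It read 573, 422, 463, 511 and 484 in the libraries labelled VAD *Stra6*-/-, and 286, 149, 166, 186 and 295 in VAD WT. In VAS WT it read 297, 268, 204, 246 and 253, and in VAS *Stra6*-/- 196, 232, 235, 206 and 215. The lowest of the libraries labelled VAD *Stra6*-/- was above the highest of the 15 others. Of all genes, 18.3% lay higher without overlap against VAD WT and 24.5% against VAS *Stra6*-/-. The log2 fold change was 1.23 against VAD WT (SE 0.17, adjusted p = 2.00e-06, limma) and 1.17 against VAS *Stra6*-/- (SE 0.17, adjusted p = 3.79e-06, limma), where 24.4% of all genes were higher. RPE markers moved in the same libraries, with 11 of 12 higher against VAD WT and 11 of 12 against VAS *Stra6*-/-, and their part in the *Pkp2* result was not tested.

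The change with diet differed between genotypes as labelled for all 10 genes. The interaction was negative for 9 members (24.8% of all genes), beyond -2 for all 9 (7.29%), and positive for *Pkp2* (19.5%, with 3.13% beyond 2). It ranged from -6.26 for *Dsg3* to -3.34 for *Perp* and was 1.45 for *Pkp2* (SE 0.24, adjusted p = 3.25e-05, limma). Leaving out VAD WT replicates 2 and 4, it ranged from -6.41 for *Dsc3* to -3.64 for *Dsg2* and was 1.23 for *Pkp2* (adjusted p = 4.56e-05, limma). The contrast rests on the libraries labelled VAD *Stra6*-/-, which held both *Xist* and *Ddx3y* and whose *Stra6* value alone cannot settle their label. Sex transcripts also differed between the groups of the contrast, and their part in it was not tested.

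**Figure D3:**
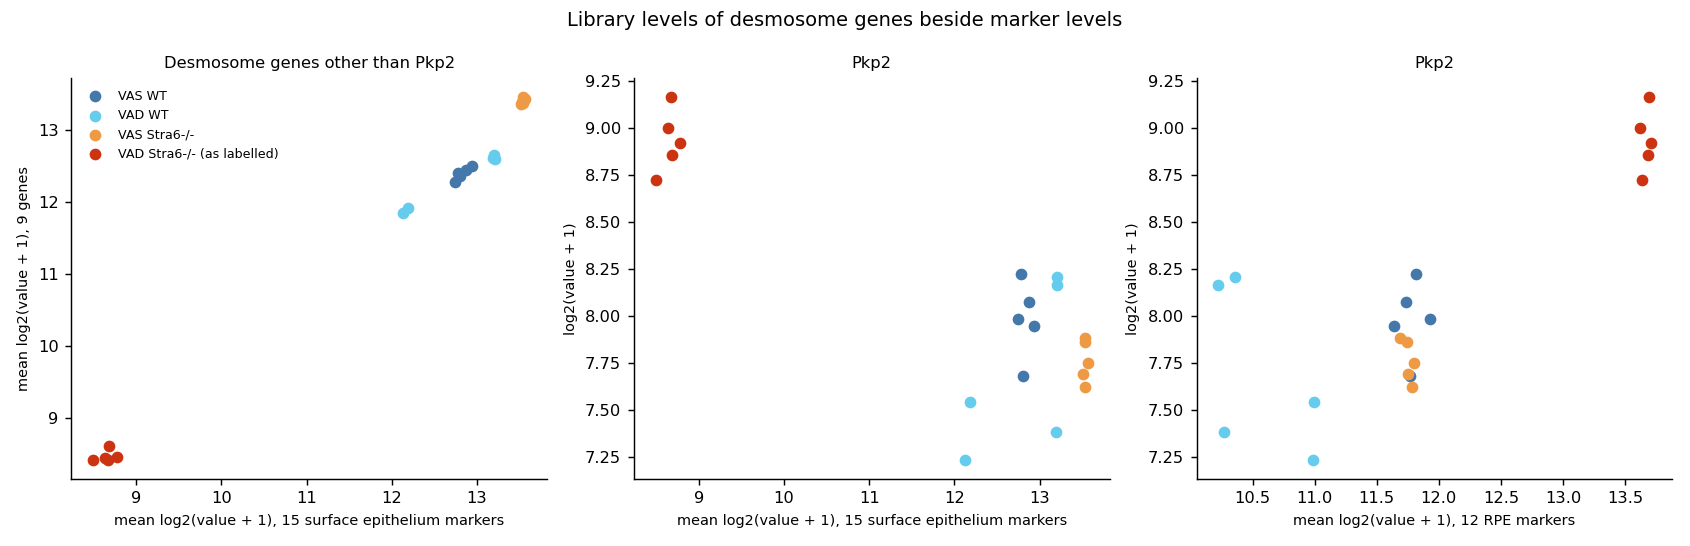
Mean log2(value + 1) of the 9 genes other than Pkp2 (left) and of Pkp2 (middle) against the mean of 15 surface epithelium markers, and Pkp2 against the mean of 12 RPE markers (right), a point per library. The libraries labelled VAD Stra6-/- lie between 8.40 and 8.60 for the 9 genes, apart from the other 15 libraries at 11.8 to 13.5, and are at the top for Pkp2.

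All 15 surface epithelium markers were lower in the libraries labelled VAD *Stra6*-/-, in both comparisons. Other lists moved as well. Against VAD WT, 7 of 8 melanocyte, 9 of 9 skeletal muscle, 7 of 8 fibroblast and sclera, 5 of 7 macrophage and 4 of 8 endothelium markers were higher, and 7 of 8 rod markers were lower. Against VAS *Stra6*-/-, 7 of 8 melanocyte, 8 of 8 fibroblast and sclera, 7 of 7 macrophage and 4 of 8 endothelium markers were higher, while 3 of 9 skeletal muscle and 5 of 8 rod markers were lower and 0 muscle markers higher (limma). The part of these in the results was not tested. The members were therefore also measured against the surface epithelium mean, which had fallen so far that 96.9% of all genes were higher against VAD WT by this measure and 0.755% were lower. *Dsc3* was 1 of the few genes below the markers, at -0.81 (SE 0.08, adjusted p = 2.39e-09, limma), and so was *Pkp1*, at -0.62 (SE 0.10, adjusted p = 3.84e-06, limma). *Dsc2* was at the threshold (-0.28, adjusted p = 0.0476, limma) and was lost with a pseudocount of 0.5 (adjusted p = 0.0623), with a replicate block (adjusted p = 0.0557) and in 16 of 20 fits without a single library (log2 -0.38 to -0.17 over the 20). *Dsg3* (-0.12) and *Pkp3* (-0.01) were not called on this scale, but were called lower with *Cdh1*, *Epcam* and *Esrp1* as the reference (-0.60 and -0.48, adjusted p = 0.0278 and 0.00183, limma). *Pkp2* (5.35), *Dsg2* (1.23), *Jup* (1.11), *Perp* (1.02) and *Dsp* (0.82) were above it, of which *Pkp2* alone lay above the median of 4.08 over all genes. Without VAD WT replicates 2 and 4, *Dsg3* changed sign to 0.42 (adjusted p = 0.00323, limma) and *Dsc2* was no longer called (-0.05, adjusted p = 0.56, limma).

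Against VAS *Stra6*-/-, 4 members were below the surface epithelium markers (0.521% of all genes) and 4 above (97.9%). *Dsg3* was lower by 1.72 (SE 0.25, adjusted p = 9.01e-07, limma), *Pkp1* by 0.98, *Dsc3* by 0.78 and *Dsc2* by 0.70 on the log2 scale. *Pkp2* (6.05), *Perp* (1.86), *Jup* (1.09) and *Dsg2* (0.61) were higher, where the median over all genes was 4.82. The *Dsg2* call was lost without VAS *Stra6*-/- replicate 4 (adjusted p = 0.0575, limma), without the library labelled VAD *Stra6*-/- replicate 3 (0.071) or 4 (0.0814), and with the reference of *Cdh1*, *Epcam* and *Esrp1* (0.725). *Dsp* (0.18) and *Pkp3* (-0.13) were not called, but with that reference both were called lower, *Dsp* at -0.33 (adjusted p = 0.0186, limma) and *Pkp3* at -0.65 (adjusted p = 9.89e-05, limma).

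**Figure D4:**
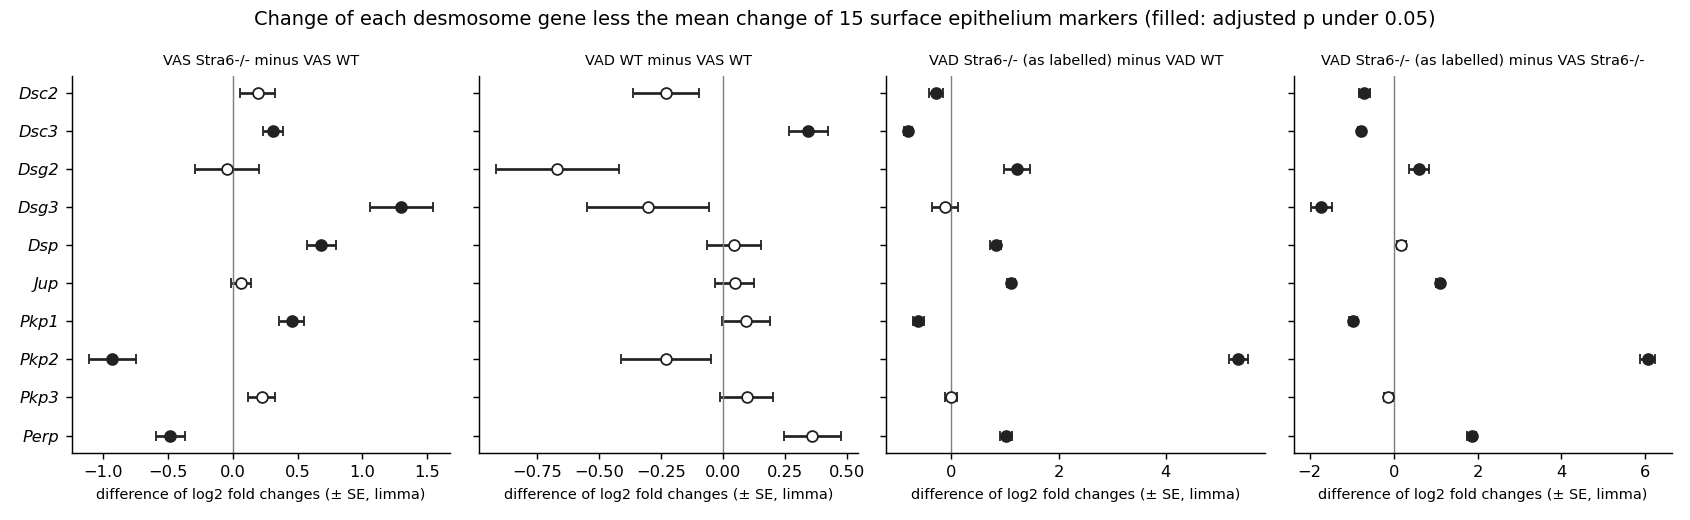
Log2 fold change of each desmosome gene less the mean change of 15 surface epithelium markers (x axis, ± SE from limma) in 4 comparisons, with filled circles for adjusted p under 0.05. Dsg3 lies at 1.30 under VAS Stra6-/- minus VAS WT and at -1.72 under the libraries labelled VAD Stra6-/- minus VAS Stra6-/-, and Pkp2 lies far to the right in both comparisons of those libraries.

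The other desmosome genes, a list of 10, were read beside the members. *Dsg4* had too few reads to be tested. In VAS *Stra6*-/- against VAS WT 5 of the 9 tested were higher and 0 lower (limma), with 0 lower also at an unadjusted p under 0.05 and by edgeR and DESeq2. They were *Cdsn*, which encodes the corneodesmosome protein of cornifying cells, *Dsg1b*, *Dsg1a*, the desmosome-associated plakin gene *Ppl*, and *Pkp4*, a plakophilin-like gene also found at adherens junctions. *Cdsn* went from 6.83 to 21.4 in VAS WT to 199 to 219 in VAS *Stra6*-/-, which is 3.71 higher on the log2 scale (SE 0.42, adjusted p = 1.29e-06, limma). *Dsg1a*, the desmoglein of upper layers, rose by 0.96 (adjusted p = 0.00174, limma) and *Dsg1b* by 2.04 (adjusted p = 0.00827, limma). These paralogs share a stretch of 417 identical bases, so that reads may be split between them, whereas the longest run shared by 2 members was 27 bases (45 pairs). In VAD WT against VAS WT 0 of the 9 were called by limma, with 1 higher at an unadjusted p under 0.05 and 1 higher by edgeR and by DESeq2. Against VAD WT, 7 of the 9 were lower in the libraries labelled VAD *Stra6*-/- and *Pkp4* was higher (0.61, adjusted p = 7.94e-07, limma), so that *Pkp4* moved with *Pkp2* and not with *Ppl* (-4.71) or the second plakin gene *Evpl* (-4.82).

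Keratins, the filaments that desmosomes hold, did not all follow the members. Of 12 keratin genes, 9 were lower and 3 higher in the libraries labelled VAD *Stra6*-/- against VAD WT. The 3 were *Krt8* (3.04), its partner *Krt18* (2.68), the keratin pair of simple epithelia, and *Krt16* (0.59). For *Krt16* the groups overlapped, at 389 to 445 there and 162 to 510 in VAD WT. VAD WT replicates 2 and 4, at 462 and 510, lay above all 5 libraries labelled VAD *Stra6*-/-. By edgeR and by DESeq2 2 of the 12 were higher. Among the 9, *Krt5*, of basal stratified cells, was at -4.84 and *Krt12*, of the cornea, at -6.40 on the log2 scale. *Krt18* was 10706 to 14559 there and 1349 to 2533 in VAD WT. In VAS *Stra6*-/- against VAS WT, 2 of 12 were higher and 5 lower. *Krt16*, a keratin induced in stressed epidermis, rose by 2.69 (SE 0.23, adjusted p = 2.40e-08, limma) and *Krt14* by 0.62, whereas *Krt19* fell by 1.16 and *Krt4* by 0.94. In VAD WT against VAS WT, 10 of 12 were lower, from -1.89 for *Krt4* to -0.52 for *Krt14*.

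Adherens junction genes were mixed in the libraries labelled VAD *Stra6*-/-. Of 7, 4 were higher (*Cdh1*, *Ctnnb1*, *Ctnna1*, *Ctnnd1*) in VAS *Stra6*-/- against VAS WT, with a median log2 fold change of 0.38 over the 7. In the libraries labelled VAD *Stra6*-/- against VAD WT, 4 were higher and 2 lower. *Cdh3*, P-cadherin, was higher by 3.37 (SE 0.21, adjusted p = 9.86e-12, limma) and *Cdh2*, N-cadherin, by 1.22, whereas *Cdh1*, E-cadherin, fell by 1.56 (SE 0.12, adjusted p = 6.04e-10, limma). *Ctnnb1*, the beta-catenin gene and relative of *Jup*, was higher by 0.64 (adjusted p = 2.18e-07, limma). Of 10 epithelial transcription factor genes, 8 were higher in VAS *Stra6*-/- against VAS WT, led by *Klf4* (1.46), and all 10 were lower in the libraries labelled VAD *Stra6*-/- against VAD WT, with *Trp63* at -4.81 and *Grhl2* at -5.94 on the log2 scale. In VAD WT against VAS WT 0 of the 10 were called by limma, with 3 lower at an unadjusted p under 0.05 and 1 lower by edgeR and by DESeq2. *Trp63*, *Grhl2* and *Elf3* are also among the surface epithelium markers, as are *Cdh1* and 4 of the keratins.

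Across the 20 libraries 9 members had similar patterns, though within VAD WT *Dsg3* was divided the other way. The correlation of each with the mean log2 value of the other members was 0.949 (*Perp*) to 0.998 (*Pkp1*), and that of *Pkp2* was -0.84. Outside the members, the 8 genes with the pattern most like the mean log2 value of all 10, among genes with a mean value of at least 100, were *Krt6a* (r = 0.998), *Net1*, *Pcdh1*, *Tmprss11g*, *Gm9573*, *Ppl*, *Sfn* and *Lmo7* (r = 0.996). *Krt6a* had a mean of 40951 in VAD WT and 2997 in the libraries labelled VAD *Stra6*-/-. The 20 libraries share the group structure, with the 5 libraries labelled VAD *Stra6*-/- far below the rest, and the correlations describe the data only.

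Ratios within a library, chosen after the values were seen and given without a test, showed how the mixture of members changed. *Dsg3* over *Dsg1a* was -1.41 ± 0.09 (SD, n = 5) on the log2 scale in VAS WT and -0.36 ± 0.05 in VAS *Stra6*-/-. Reads of *Dsg1a* may be split with *Dsg1b*. In VAD WT the ratio was -2.12 ± 0.86, and in the libraries labelled VAD *Stra6*-/- -1.56 ± 0.49. The first pair did not overlap (-1.50 to -1.31 and -0.41 to -0.30). *Dsp* over *Jup* was 0.33 ± 0.05 in VAS WT, 0.95 ± 0.07 in VAS *Stra6*-/- and 0.04 ± 0.18 in the libraries labelled VAD *Stra6*-/-. *Pkp1* over *Pkp3* went from 0.73 ± 0.03 in VAS WT to 0.96 ± 0.02 and to 0.12 ± 0.28 in the same groups. *Dsc2* over *Dsc3* was close in VAS WT (0.44 ± 0.05), VAS *Stra6*-/- (0.33 ± 0.06) and the libraries labelled VAD *Stra6*-/- (0.40 ± 0.14), but ran from -0.45 to 0.35 in VAD WT.

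**Figure D5:**
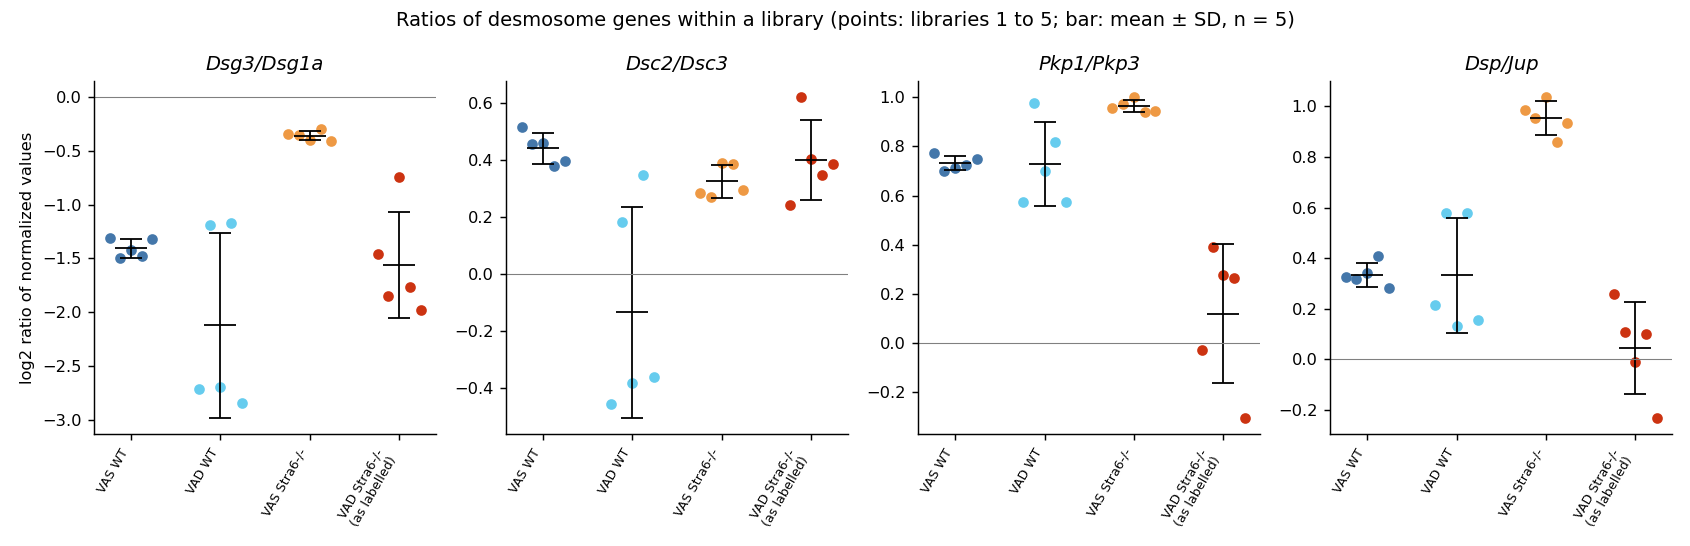
Log2 ratio of normalized values of 4 pairs of desmosome genes within each library (points) by group, with bars for the mean ± SD (n = 5). VAS Stra6-/- libraries lie above VAS WT for Dsg3/Dsg1a, Pkp1/Pkp3 and Dsp/Jup. VAD WT splits into replicates 2 and 4 and replicates 1, 3 and 5 for Dsg3/Dsg1a, Dsc2/Dsc3, Pkp1/Pkp3 and Dsp/Jup.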

How the data were processed

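The data were 20 RNA-seq libraries of mouse RPE-choroid (5 per group, groups taken from the sample labels). Reads were aligned to GRCm38 with STAR 2.5.3a and counted with RSEM 1.2.30, and the authors deposited a signal per gene, the gene count divided by a DESeq2 1.32.0 size factor per library. Because all values of 19 libraries were whole multiples of what 1 read is worth (100.0% within 0.01), depth and reads were recovered for these. In the library labelled VAD *Stra6*-/- replicate 1 the step was too near 1 for this, so it was left out of the count tests. 0 value columns belonged to no sample. The study reports 1 mouse per library, but sex transcripts were mixed in some libraries. The p-values are therefore read as measuring only the spread between these libraries.

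In R 4.3.3, limma 3.58.1 was fitted to log2(value + 1) with 4 group means and a variance trend over 18807 genes, with Benjamini-Hochberg adjustment over all of them. Fold changes are on that scale and understate changes of low genes. A gene was called at an adjusted p under 0.05. A second fit subtracted the mean log2 value of 15 surface epithelium markers from each library. The planned test assumed that the file might hold raw counts and named edgeR for that case. As it holds scaled values, edgeR 4.0.16 and DESeq2 1.42.0 on recovered reads of 19 libraries were alternatives, besides other pseudocounts (0.5 and 4), scalings (TMM, library total), filters, a replicate block, a fit of the compared groups alone and fits without single libraries. The fit was tested on simulated data with the same dispersion for all genes and no division within a group. That test therefore does not cover the split of VAD WT.

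All 10 members were named, any gene of the lists of other desmosome, keratin, adherens junction and transcription factor genes could be, and of marker lists those with the 3 highest means. *Cdh1*, *Epcam* and *Esrp1* are named as an alternative reference. *Stra6*, *Xist* and *Ddx3y* were read as checks of the labels. Members and lists were chosen with earlier results of these data known. Levels per kb used the exon length of GENCODE vM21. Promoter windows came from RefSeq (GRCm38.p6). The *Jup* and *Dsp* stretches were cut to lie upstream of the RefSeq gene and of any untranslated region in GENCODE. The windows they were set beside were only cut to the same length.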

Additional observations from a re-analysis of the deposited data

Results flagged for a closer look

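In 3 of the 40 sets of 5 libraries (10 genes in 4 groups) a library stood apart by Dixon's test, for which chance gives about 1 in 20. All 3 were in VAS *Stra6*-/-. *Dsc2* was 15774 in replicate 3, where the others lay from 14162 to 14562, and *Dsg3* was 7504 in the same replicate against 6770 to 6889. *Dsc3* was 10832 in replicate 4 against 11875 to 12053. Leaving out either replicate kept all 3 genes called against VAS WT.

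The change with diet differed between *Stra6*-/- and WT as labelled for all 10 genes, by a test of the difference itself (limma interaction, adjusted over all genes). On the log2 scale it was -5.31 for *Dsc2*, -5.96 for *Dsc3*, -3.56 for *Dsg2* and -6.26 for *Dsg3*. It was -4.70 for *Dsp* and -3.79 for *Jup*. The plakophilins divided, with -5.91 for *Pkp1*, -5.07 for *Pkp3* and 1.45 for *Pkp2*, and *Perp* was at -3.34. The libraries labelled VAD *Stra6*-/-, on which these differences rest, held both *Xist* and *Ddx3y*, and their *Stra6* value alone cannot settle their label.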

How the results depend on the processing

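Counts of called members kept within 1.5 times of their value in the comparisons of the libraries labelled VAD *Stra6*-/-, except that 5 and not 3 were lower against VAD WT with *Cdh1*, *Epcam* and *Esrp1* as the reference. In VAS *Stra6*-/- against VAS WT, the 1 gene higher beyond 2 (*Dsg3*) became 0 with TMM, the library total and edgeR, and 0 to 1 without single libraries (0 without VAS WT replicate 5 or VAS *Stra6*-/- replicate 3). In VAD WT against VAS WT the 1 lower member became 2 with the library total, with DESeq2 and without VAD WT replicates 2 and 4, and 0 to 2 without single libraries (0 without VAS WT replicate 2, 2 without VAD WT replicate 4 or the library labelled VAD *Stra6*-/- replicate 3). The higher ones went from 0 to 6 without VAD WT replicates 2 and 4 and to 0 to 1 without single libraries (1 without VAD WT replicate 2). Against surface epithelium, 4 were lower and 2 higher without replicates 2 and 4, and 0 to 2 were higher without single libraries (0 without VAS WT replicate 2, 2 without VAD WT replicate 2 or 4).

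Replicate numbers did not pair the samples (correlations of same-numbered deviations -0.07 to 0.07, 0 of 30 over 0.1). With the replicate block the higher member against surface epithelium in VAD WT went from 1 to 0 and the lower members in the libraries labelled VAD *Stra6*-/- against VAD WT from 3 to 2, and no other count of members changed.

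Some signs changed. In VAD WT against VAS WT, *Dsp* was 0.0031 with TMM, 0.024 with edgeR and DESeq2, 0.23 without replicates 2 and 4 of VAD WT, and 0.022, 0.034, 0.092 and 0.083 without VAS WT replicate 2 or 4 or VAD WT replicate 2 or 4 (lowest -0.068 without VAD WT replicate 1). With the library total *Pkp1* was -0.011, *Pkp3* -0.0083 and *Jup* -0.058. Without VAD WT replicate 1, 3 or 5, *Pkp1* was -0.036, -0.050 and -0.038, *Pkp3* -0.072, -0.055 and -0.074, and *Jup* -0.095, -0.105 and -0.095 (highest 0.19, 0.25 and 0.16 for these 3, without VAD WT replicate 2), and *Jup* was -0.0055 and -0.033 without VAS WT replicate 3 or 5. Against surface epithelium, *Dsg2* in VAS *Stra6*-/- was 0.058 with the short reference and 0.018 without replicate 4 (lowest -0.096 without replicate 3), and *Dsp* in VAD WT was -0.14 without replicates 2 and 4 and -0.027 and -0.021 without either. For the libraries labelled VAD *Stra6*-/- against VAD WT, *Dsg3* was 0.42 without VAD WT replicates 2 and 4 and 0.073 and 0.087 without either (lowest -0.27 without replicate 3). *Pkp3* was 0.0095 with a pseudocount of 0.5, 0.011 and 0.014 without VAD WT replicate 1 or 5 and 0.10 without the fourth library so labelled (lowest -0.075 without the fifth). *Dsp* was -0.33 against VAS *Stra6*-/- with the short reference, where it was called lower (adjusted p = 0.0186, limma). The cause was not tested for these. Both scalings moved the median of all genes by less than 0.1.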
